A study of Homo sapiens with 2 samples.

Results

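ALKBH5 and FTO are the known RNA demethylases that act on N6-methyladenosine (m6A), a methylated base of messenger RNA, and this account follows these 2 genes through the tables deposited for an RNA immunoprecipitation of ALKBH5. They were taken by name, 2 of the 5851 gene symbols that the 3 tables hold together. The cells were HL-60, a human cell line established from a promyelocytic leukaemia. A total of 1 library came from RNA of the whole lysate (input) and 1 from RNA pulled down with an antibody against ALKBH5 (IP). The labels describe no treatment, and they write ALKBH5 in the genotype field of both libraries. The library names are Ctrl_input and Ctrl_ip. The titles contradict the library names, each naming the fraction that the other field does not. The groups were read from the library names, and since no table holds a value of a single library, that choice changed no value given here. A rabbit IgG control is described in the design text and was not analysed here.

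m6A is laid down on messenger RNA by a nuclear writer complex built around METTL3 and METTL14, is bound by reader proteins, and is erased by ALKBH5 and FTO. Both erasers belong to the AlkB family of dioxygenases, which use iron and 2-oxoglutarate to oxidise a methyl group. ALKBH5 is known for its place in nuclear specks and for an effect on mRNA export, and FTO also acts on the methylated cap-adjacent base of mRNA. Both have been studied in acute myeloid leukaemia, where raised levels of either have been tied to growth of the leukaemic cells.

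The tables are lists and not levels. The GO and KEGG tables give functional terms with the genes the authors found in each, written as a gene identifier and a symbol, and the family table sets a gene symbol beside an RNA-binding protein family. A gene is called named here when its symbol stood in any of the 3 tables. A GO or KEGG symbol could be seen only if it fell in a term that reached the authors' limit for listing, so a gene that was not named may still have had a peak. No read count, peak height or position of either gene was analysed here, the depth behind each name is unknown, and there was 1 library per group, so no difference between IP and input and no replicate error can be given.

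ALKBH5 was named in 8 of the 311 GO terms and in none of the 38 KEGG pathways. Whether KEGG places ALKBH5 or FTO in any of these pathways was not checked. The share of all symbols found in a KEGG pathway is not given here, so the lack of pathways has no base. The ALKBH5 gene lies on chromosome 17 from 18183828 to 18209954 (RefSeq, GRCh38.p14), a span of 26.1 kb. Of these 8 terms, 4 describe what happens to RNA, and the other 4 are places in the cell. The RNA terms were RNA binding, mRNA export from nucleus, regulation of mRNA stability and mRNA processing. The places were nucleoplasm, nuclear speck, nucleus and cytosol. A term holds ALKBH5 because the gene is annotated to it, so the terms describe the ALKBH5 protein and say nothing on the amount of its transcript.

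FTO was named in 4 GO terms and likewise in no KEGG pathway. The gene lies on chromosome 16 from 53703963 to 54121941 and spans 418 kb, against a median of 35.4 kb over the named protein-coding genes and 20.1 kb over those not named. All 4 of its terms were places: nucleoplasm, nuclear speck, nucleus and cytoplasm. FTO was not an entry of any of the 4 RNA terms that held ALKBH5. The genes shared 3 terms, which were nucleoplasm, nuclear speck and nucleus. These made up 37.5% of the terms of ALKBH5 and 75% of those of FTO.

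Most of the terms that held the erasers were among those that passed the authors' correction. By the authors' deposited table, 6 of the 8 terms of ALKBH5 and 3 of the 4 of FTO had a corrected p under 0.05. Over the whole GO table this held for 38 of 311 terms (12.2%), but those 38 include very large terms, and 46.6% of all entries of GO terms stood in one of the 38. The terms were part of how the genes were followed, so these counts are a description. For RNA binding the authors' deposited table counted 821 entries where the background held 1366 genes (corrected p 5.33e-16). The term mRNA export from nucleus had 80 entries on 101 genes there, with the highest rich factor of the terms that held an eraser, 2.38 (the term's share of input entries over the overall share; authors' deposited table, corrected p 0.00245). In contrast, regulation of mRNA stability (72 on 111, corrected p 0.161) and mRNA processing (83 on 158, corrected p 0.891) did not pass in the authors' deposited table.

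The compartments also differed among themselves. Nucleoplasm came first of all GO terms, with 1939 entries for 3630 genes and a corrected p of 3.05e-20 (authors' deposited table). Nuclear speck, the body rich in splicing factors where both erasers are annotated, held 259 entries for 400 background genes (authors' deposited table, corrected p 2.04e-06, rich factor 1.94). For cytosol, which held ALKBH5 and not FTO, the authors' deposited table gave a corrected p of 5.90e-11. For cytoplasm, which held FTO and not ALKBH5, the authors' deposited table gave 0.451 with a rich factor of 1.29. For nucleus, which held both, the corrected p was 0.00503 (authors' deposited table).

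**Figure D1:**
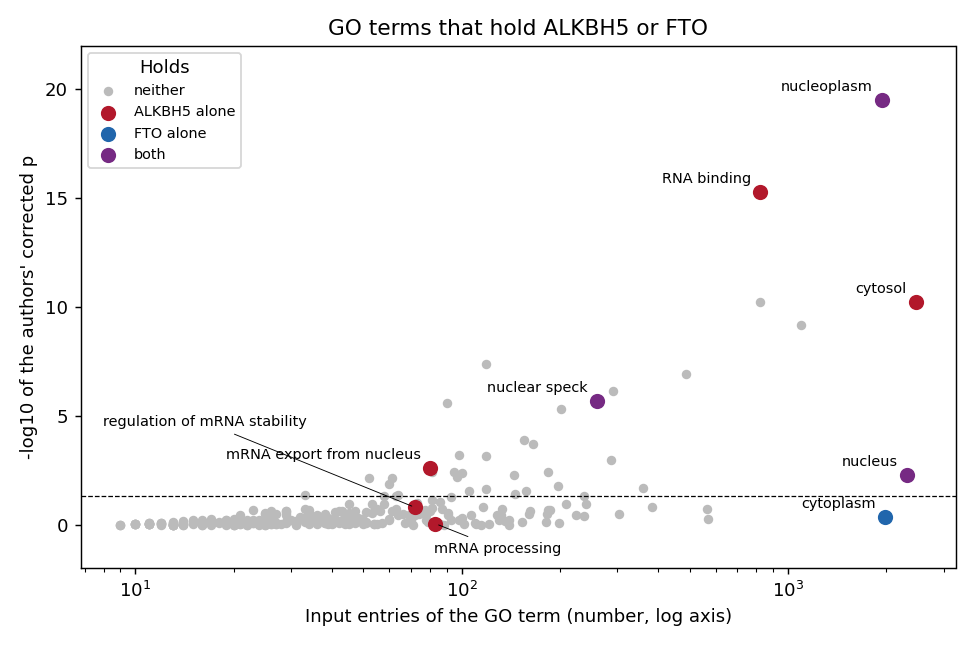
Each point is 1 of the 311 listed GO terms, with its number of input entries (log axis) against the -log10 of the authors' corrected p; the dashed line marks 0.05. Terms that hold ALKBH5 alone are red, FTO alone blue and both purple: 6 of the 8 terms of ALKBH5 and 3 of the 4 of FTO lie above the line.

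The erasers were not extreme in their number of terms. The median symbol of the GO and KEGG tables was in 4 terms and the highest in 40. FTO, with 4, was at the median. ALKBH5, with 8, was above it, and 26.2% of the 5614 symbols were in as many terms or more.

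**Figure D2:**
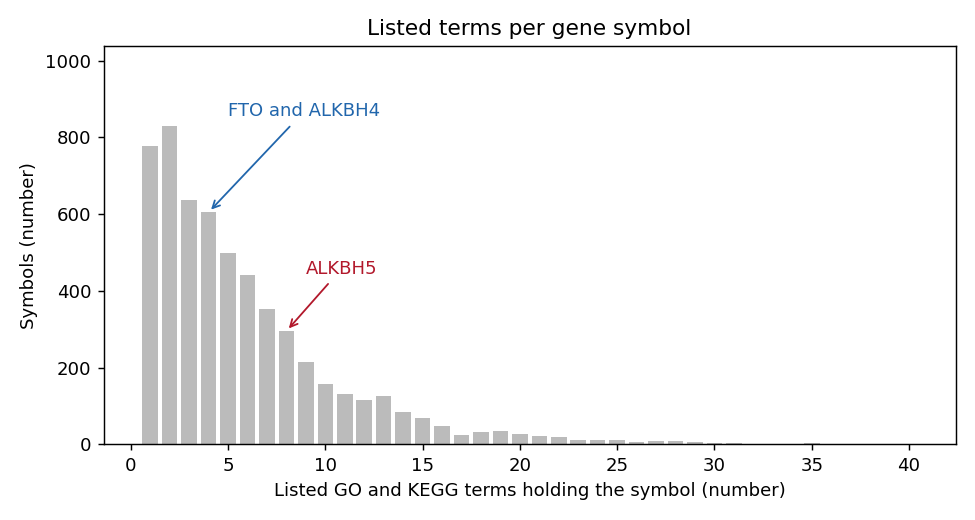
Bars give the number of gene symbols (vertical axis) found in a given number of listed GO and KEGG terms (horizontal axis). Arrows mark ALKBH5 at 8 terms and FTO and ALKBH4 at 4, which is the median symbol.

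The gene identifier of ALKBH5 was carried by a further symbol. RP11-258F1.1, a symbol of the kind given to transcripts named after a genomic clone, stood beside the identifier of ALKBH5 in all 8 of its terms. Each of these terms therefore counted that identifier 2 times among its input entries. In nuclear speck, for example, the 259 entries stood on 244 distinct identifiers (61% of the 400 background genes), and in mRNA export from nucleus the 80 entries stood on 74 (73.3%). The rich factors quoted above count entries. Neither they nor the authors' p-values were recomputed on distinct identifiers. FTO and ALKBH4 were each the only symbol on their identifier. The reference used here has no entry for RP11-258F1.1, so its position and strand relative to ALKBH5 are not given. Such doubling was uncommon but not rare: 291 of 5237 identifiers (5.56%) carried more than 1 symbol, 274 of them exactly 2. Of the symbols on shared identifiers 382 were not a name of the gene itself, and 271 of these were clone names.

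The family table separated the symbols on that identifier. Neither ALKBH5 nor FTO was paired with any of the 4 families, and 23.0% of all named symbols were paired with at least 1. All 1348 symbols of the family table were paired with RRM (the RNA recognition motif) and 1342 with CSD, so these pairings say little beyond presence there. RP11-258F1.1 was paired with all 4 families, namely RRM, CSD, PUF, and CCHC zinc fingers joined with RRM, as were 838 of the 1348 symbols. A search by gene identifier would thus give ALKBH5 4 pairings where a search by symbol gives 0. A split of this kind was seen for other genes too. For 350 symbols that shared an identifier with a single proper gene symbol, the further symbol alone was in the family table in 32 cases (9.14%), 19 of them with all 4 families. The gene symbol alone was there in 66 cases, both in 26 and neither in 226. All 350 had the same GO and KEGG terms as their gene symbol, which is what assignment by identifier gives.

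Of the other AlkB symbols only ALKBH4 was named. ALKBH4, which has been reported to act on actin and to be needed for cell division, lies on chromosome 7 from 102456238 to 102464863. It was an entry of nucleolus, cytoplasm, midbody and chromatin organization. The midbody is the bridge between dividing cells. Of these only nucleolus passed (authors' deposited table, 487 entries for 839 genes, corrected p 1.15e-07). The authors' deposited table listed midbody with 84 entries for 160 genes (corrected p 0.882). ALKBH4 shared no term with ALKBH5, and cytoplasm alone with FTO.

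The symbols ALKBH1, ALKBH2, ALKBH3, ALKBH6, ALKBH7 and ALKBH8 were in none of the 3 tables, under these or older symbols. ALKBH2 and ALKBH3 repair alkylated bases in nucleic acids, ALKBH7 is mitochondrial, and ALKBH8 modifies transfer RNA. With ALKBH5, FTO and ALKBH4 this makes 3 of 9 family members named (33.3%), against 26.8% of the 20056 protein-coding genes of the reference. That share lies near the share of all genes, but it counts ALKBH5 and FTO themselves. These were chosen with earlier results of these data known, so the share is a description only. Beyond them ALKBH4 alone was named. No member of the family was in the family table. The named members had a median length of 26.1 kb and those not named 20.5 kb, with FTO (418 kb) the longest of the 9. Single members departed from that order: the named ALKBH4 spans 8.63 kb and the unnamed ALKBH8 63.0 kb.

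Most of the writers and readers of m6A were named. Counting older symbols, as the share of all genes does, 9 of 11 writer genes (81.8%) and 10 of 12 readers (83.3%) were named, against 26.8% of protein-coding genes. That base, also used for the other lists, takes all genes whatever their annotation. In nucleoplasm and RNA binding, which hold most of these genes, the distinct identifiers listed were 50.6% and 57.2% of the background genes. Whether the lists exceed genes of like annotation was not tested, and they were chosen with earlier results of these data known. The named writers were METTL3, the catalytic subunit, its partner METTL14, and WTAP, RBM15, RBM15B and ZC3H13, which place or scaffold the complex. VIRMA, its large scaffold, was named only under its older symbol KIAA1429. METTL16, which methylates a small nuclear RNA, and ZCCHC4, which methylates ribosomal RNA, completed them. CBLL1 and METTL5 were not named. The named readers were YTHDF1, YTHDF2, YTHDC1, YTHDC2, IGF2BP1, IGF2BP3, HNRNPA2B1, HNRNPC, FMR1 and ELAVL1, and those not named were YTHDF3 and IGF2BP2.

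These genes met the erasers in different terms. In nuclear speck, ALKBH5 and FTO stood with 6 writers (METTL3, WTAP, VIRMA, RBM15, RBM15B and ZC3H13) but with a single reader, YTHDC1, the nuclear YTH protein. In regulation of mRNA stability ALKBH5 stood with 5 readers and no writer. The readers were YTHDF2, which is known to speed mRNA decay, IGF2BP1 and IGF2BP3, which are known to stabilise mRNA, and FMR1 and ELAVL1. In mRNA export from nucleus it stood with the writer RBM15B and the readers YTHDC1 and HNRNPA2B1. RNA binding held ALKBH5 with 5 writers and all 10 named readers, and METTL3, METTL14 and WTAP were not among its entries. Cytoplasm held FTO with 4 writers and 7 readers, and mRNA processing held ALKBH5 with METTL3, WTAP, VIRMA, ZC3H13, HNRNPA2B1 and FMR1. These are annotations of the proteins, seen only where a gene was listed.

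**Figure D3:**
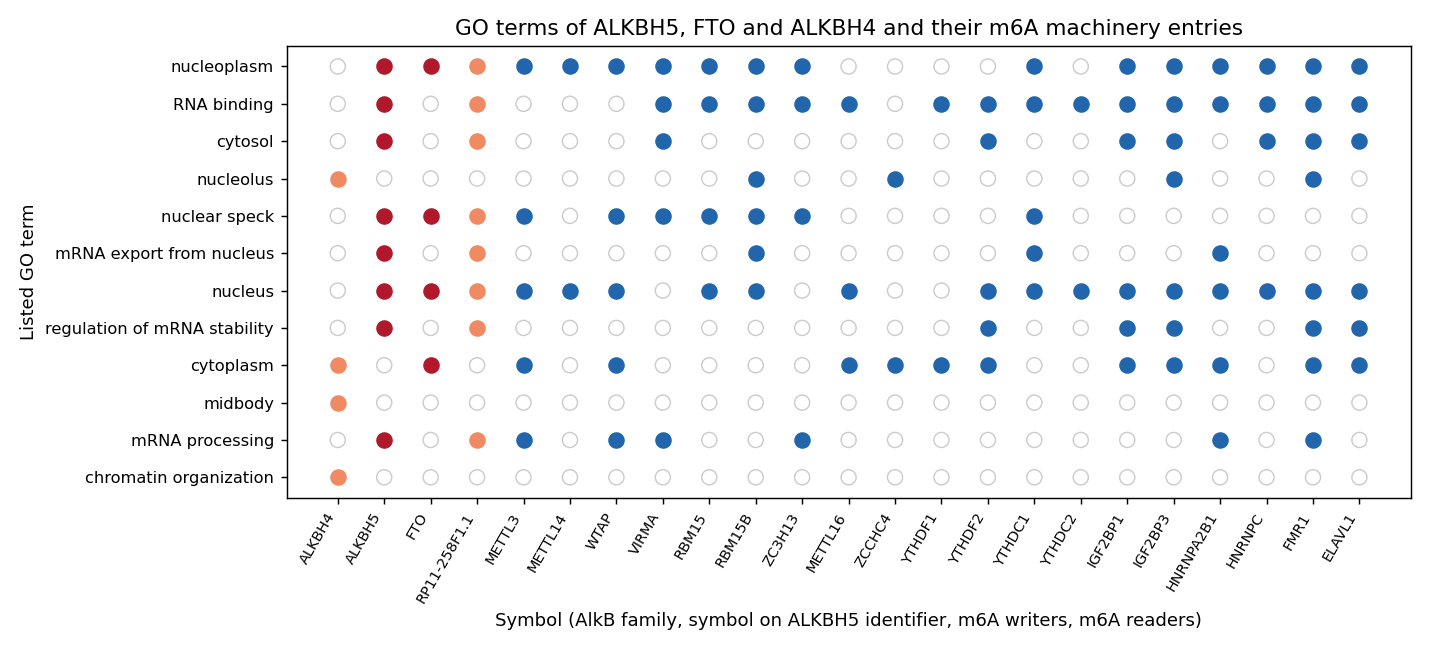
Rows are the GO terms that hold ALKBH5, FTO or ALKBH4, in order of the authors' p, and columns are symbols: the AlkB members named, RP11-258F1.1, the writers and the readers that were named. A filled circle marks an entry of the term; ALKBH5 and RP11-258F1.1 have the same 8 filled rows, and nuclear speck holds 6 writers and 1 reader.

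In the family table WTAP, FMR1 and ELAVL1 were paired with all 4 families. The other 16 of the 19 named writers and readers were absent from it, as ALKBH5 and FTO were. Of all 5851 named symbols 1348 were in that table (23.0%), so absence was the usual case. HNRNPA2B1 and HNRNPC, whose proteins carry RNA recognition motifs, were among those absent. Absence from this table thus cannot be read as lack of such a domain in the protein. Presence cannot be read as having such a domain either. All 4 families were paired with 838 of the 1348 symbols, among them the clone name RP11-258F1.1, ATG7 and PLOD1. Whether any pairing matches a domain of the gene's own protein was not tested.

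The wider class of dioxygenases that use iron and 2-oxoglutarate holds histone demethylases, the TET enzymes of DNA, oxygen sensors and collagen hydroxylases. Of 45 such genes outside the AlkB family 30 were named (66.7%, against 26.8% of protein-coding genes), counting RIOX1 and RIOX2 under the older symbols C14orf169 and MINA. The first in alphabetical order were EGLN2, an oxygen-sensing prolyl hydroxylase, HIF1AN, which hydroxylates the hypoxia factor HIF, and JMJD1C, JMJD6, KDM2A, KDM2B, KDM3A, KDM3B, KDM4A and KDM4B. KDM2A, KDM2B, KDM4A and KDM4B are histone lysine demethylases, and histone H3-K36 demethylation was itself a listed term (10 entries for 10 genes at a corrected p of 0.957, authors' deposited table), through which such genes could become named. JMJD6, in 11 terms, shared 5 of them with ALKBH5, as many as KIAA1429, which was in 7. RBM15B, YTHDC1, IGF2BP1, IGF2BP3, HNRNPA2B1 and ELAVL1 also shared 5, and FMR1 shared 6. TET1 and TET2, which oxidise methylated cytosine in DNA, were not named, and TET3 was.

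No listed term was named for RNA demethylation or for dioxygenase activity. Terms on methylation in the GO table were histone methyltransferase complex, DNA methylation, methylated histone binding, histone H3-K36 demethylation, the matching demethylase activity and tRNA methylation, and none of them held an AlkB symbol. Their corrected p in the authors' deposited table lay between 0.505 and 0.972.

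Of 13 transcripts reported elsewhere as substrates of an eraser in leukaemia, in autophagy or in stem-like cells, 9 were named (69.2%, against 26.8% of protein-coding genes). TACC3 and AXL, reported for ALKBH5 in acute myeloid leukaemia, were both named, in 8 and 4 terms. Of those reported for FTO in leukaemia, ASB2, RARA, MYC and CEBPA were named and LILRB4 was not. RARA encodes the retinoic acid receptor alpha, and CEBPA a transcription factor of granulocytes. Of the autophagy genes ULK1, ATG7 and TFEB were named and ATG5 was not. FOXM1 and NANOG were not named either. ATG7 was paired with all 4 families of the family table and ULK1 with 3, and the other 7 named transcripts were absent from it. The list was drawn up with earlier results of these data known, and being named gives no measure of binding.

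**Figure D4:**
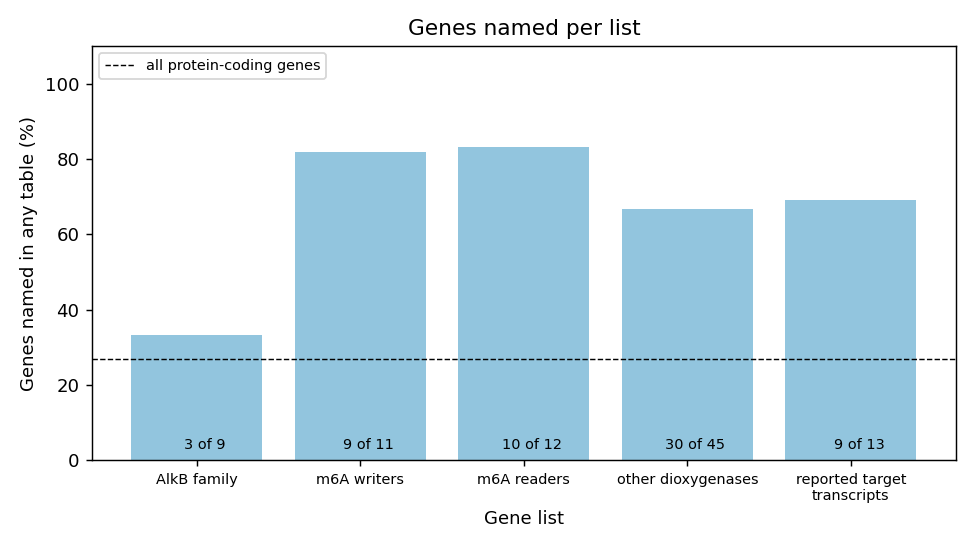
Bars give the percentage of each gene list named in any of the 3 tables, older symbols included, with the counts written at the foot. The dashed line is the 26.8% of all protein-coding genes, whatever their annotation. The AlkB family (33.3%) lies near it and the writers (81.8%) and readers (83.3%) lie above it. The AlkB bar counts ALKBH5 and FTO themselves, which were chosen with earlier results known. No base of genes with like annotation is drawn.

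Likeness to the erasers was measured over listed terms with the Jaccard index, the number of shared terms over the number in either set. For ALKBH5 the leading symbol with its own identifier was YLPM1, a nuclear RNA-associated protein (5 shared terms, index 0.556). AKAP17A, a kinase anchor of splicing bodies, and KIAA1429 each shared 5 terms, and ASCC1 and PNISR shared 4, all with an index of 0.5. No other symbol that is a name of its identifier's gene was in all 8 terms of ALKBH5. Of such symbols SRSF2 and SRSF5, both splicing factors, shared the most with 7. Further symbols, such as RP11-258F1.1, were left out of this ranking. FTO had fewer terms, among them the very large nucleoplasm, nucleus and cytoplasm, so sharing all of them is easier. Among symbols that are a name of their identifier's gene, 66 were in all 4. OSGEP, an enzyme that modifies transfer RNA, had exactly those 4 and no other (index 1). AP5Z1, DUSP10 and FAM193B followed with 4 shared terms of 5 (index 0.8), and ARID4B, a chromatin protein, with 3 of 3 (0.75). Ties in the index were broken by the number of shared terms and then by alphabet, and each list was cut at 5. Further symbols may thus have the same index as the last ones given. These indices describe annotation of listed genes, over 8 and 4 terms.

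The labelled cell type could be checked only by names. Of 12 promyelocyte markers MPO, PRTN3, LYZ, CD33 and CEBPA were named, and ELANE, AZU1, CTSG, MYB, CEBPE, SPI1 and CSF3R were not. Of 12 genes listed here as markers of other cells EPCAM, KRT18, KRT19 and PECAM1 were named. None of these was checked for absence from myeloid cells. The share was 41.7% in the former list and 33.3% in the latter, against 26.8% of protein-coding genes, and with 12 genes each these counts do not identify the line.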

How the data were processed

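RNA of an ALKBH5 immunoprecipitate and of its input was sequenced in HL-60 cells, with 1 library each. The submitters' processing notes name hg38. How reads were aligned, how peaks were called and how the family table was made is not given in the sources used here. Per the file headers, the authors deposited, for each GO or KEGG term, the counts of input entries and background genes, a rich factor (a ratio), a p-value and a corrected p-value. None of these was recomputed, and no test was run, because no table holds a value of a library.

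Entries were split into identifier and symbol with Python 3.11.15 and pandas 2.3.3 and matched by whole symbol. Splitting and the ranking by likeness were tested on simulated data, and the matching of list and older symbols was not. Older symbols came from RefSeq (GRCh38.p14) and a gene name table. Of the 5851 symbols 5291 were current symbols in these. Positions are RefSeq's.

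The members and lists were chosen with earlier results of these data known. Named were ALKBH5 and FTO with all their terms and pairings, every AlkB, writer, reader and reported target gene, up to 10 named dioxygenases in alphabetical order, markers, and the 5 symbols most like each eraser. RP11-258F1.1, SRSF2, SRSF5, the later dioxygenases and flanking genes were singled out after their entries were seen.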

Additional observations from a re-analysis of the deposited data

How the results depend on the processing

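Of 23 alternatives over 10 results, 15 stayed within 1.5 times of the value given and 8 did not. ALKBH5 was in 8 terms by symbol or identifier, 7 with p under 0.01 and 6 with a corrected p under 0.05; for FTO the numbers were 4, 4 and 3. Matched by identifier, the families paired with ALKBH5 went from 0 to 4, through RP11-258F1.1. The 3 AlkB symbols became 0 in the KEGG table alone, for which no share of all symbols is given, and 0 in the family table alone. In the family table alone 1 of the 8 writers and 2 of the 10 readers with current symbols were named. With genes of any biotype, 9.14% of genes were named in place of 26.8%. Of the 5 symbols most like ALKBH5, 3 were among the leading 5 over GO terms alone and 0 when ranked by the number of shared terms; for FTO these were 5 and 4. Older symbols for writers and readers, and family pairings by identifier, were alternatives chosen after seeing the data. No paired analysis was possible because the tables carry no value of a library. Depth could not be judged from these tables.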

Other observations

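Of the 4 protein-coding genes that flank the erasers 1 was named, a share near the 26.8% of all protein-coding genes. LLGL1, a cell polarity gene that starts 15.7 kb past the end of ALKBH5, was in 6 listed terms, and MYO15A, a myosin of the inner ear that ends 4.03 kb before it, was not named. RPGRIP1L, a gene of the primary cilium that ends 103 bp before the start of FTO, was not named, nor was IRX3, a transcription factor gene 161 kb past its end. None of the 4 was in the family table. Starts and ends are given here by genome coordinate, without regard to the strand of each gene.

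PLOD1, a collagen lysyl hydroxylase, was in a single listed term and yet paired with all 4 families, and OGFOD2, a dioxygenase of the same class, was in the family table (all 4 families) and in no listed term. KDM3B and KDM6B were also paired with all 4, KDM4B, KDM8 and PHF8 with 3, and P3H3 with 2. In all, 8 of the 30 named dioxygenases outside the AlkB family were in that table, a share near the 23.0% of all named symbols. None of the 3 named AlkB genes was in it.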
